A study of Mus musculus with 18 samples.

Results

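Dermal collagen and extracellular matrix genes were followed in dorsal skin of the hairless HR-1 mouse, an albino strain, on Affymetrix mouse genome arrays. The members are 45 named genes in 8 classes: fibrillar collagens, collagen VI, basement membrane collagens, FACIT collagens, glycoproteins, proteoglycans, elastic fibre genes, and genes of collagen crosslinking and processing. They were chosen by name, each through the probe set with exactly its symbol and the highest mean over the 18 arrays. A gene was used where that probe set ranged by at least 0.01 log2 over the arrays. Of the 45 members, 41 met this, among 6842 such genes of 18193 on the array. Col18a1, Emilin1 and Plod2 were constant and give no information, and Fbn1 had no probe set under that symbol in the annotation used here.

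All mice were males of 6 weeks of age by the labels, and the 3 groups had 6 mice each, with 1 array per mouse. TS/WB mice were tape stripped and also swallowed an extract of winged bean, a tropical legume, suspended in carboxymethylcellulose (0.3%). The dose was 200 mg/kg/day, given 5 times a week over 5 weeks and begun 1 week before the first stripping. TS mice were stripped only: cellophane tape was put on and pulled off the left side of the back 3 times a week over 4 weeks, each time until the water loss through the epidermis reached 70 to 100 g/m2/h. NT mice were not stripped. The labels do not state whether TS and NT mice received the vehicle. Whole skin was used, so in every result below fewer cells of a type and less RNA per cell cannot be told apart.

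Fibrillar collagens are made by dermal fibroblasts as procollagen chains that are hydroxylated, folded with a chaperone, trimmed outside the cell and joined by lysyl oxidases into fibrils, which give skin its tensile strength. Small leucine-rich proteoglycans and FACIT collagens sit on the fibril surface and regulate its growth. Elastic fibres, a core of elastin on a scaffold of fibrillin microfibrils and fibulins, let skin recoil.

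Promoter sequence was found for 31 of the 45 members and for 11 of the 16 members that differed between TS and NT. It is shown for 3 processing genes that fell together in TS skin (Serpinh1, Pcolce and P4ha2) and for Thbs2, which rose. Each line gives the 250 bases before the start site, 5′ to 3′ on the gene's strand, from the RefSeq promoter table on GRCm38.p6. They lie at chr7:99353240-99353489 on the minus strand for Serpinh1, chr5:137611405-137611654 on the minus strand for Pcolce, chr11:54100674-54100923 on the plus strand for P4ha2 and chr17:14694263-14694512 on the minus strand for Thbs2. Capitals mark matches, on either strand and without overlap, to CCAAT, to TATAAA, to GGGCGG (the GC box) or to the heat shock element GAANNTTC.
Serpinh1: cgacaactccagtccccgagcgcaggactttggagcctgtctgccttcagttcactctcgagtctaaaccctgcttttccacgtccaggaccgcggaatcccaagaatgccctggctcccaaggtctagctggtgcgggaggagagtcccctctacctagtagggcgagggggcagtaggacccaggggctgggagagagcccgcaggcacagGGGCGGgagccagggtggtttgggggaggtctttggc
Pcolce: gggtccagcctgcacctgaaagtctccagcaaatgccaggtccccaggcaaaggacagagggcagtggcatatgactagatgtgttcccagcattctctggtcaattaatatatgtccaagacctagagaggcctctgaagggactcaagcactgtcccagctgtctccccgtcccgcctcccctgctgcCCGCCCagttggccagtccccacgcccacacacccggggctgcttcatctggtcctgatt
P4ha2: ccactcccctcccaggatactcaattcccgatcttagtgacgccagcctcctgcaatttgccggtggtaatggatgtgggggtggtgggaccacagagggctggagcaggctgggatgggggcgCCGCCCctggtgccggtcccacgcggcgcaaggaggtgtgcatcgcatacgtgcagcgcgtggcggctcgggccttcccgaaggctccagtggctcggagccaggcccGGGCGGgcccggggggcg
Thbs2: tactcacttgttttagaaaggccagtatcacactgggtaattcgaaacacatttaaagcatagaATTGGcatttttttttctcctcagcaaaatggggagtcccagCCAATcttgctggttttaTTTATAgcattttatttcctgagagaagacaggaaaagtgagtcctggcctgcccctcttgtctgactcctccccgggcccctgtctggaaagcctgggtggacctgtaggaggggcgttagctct
The windows of Serpinh1 and Pcolce each held 1 GC box and that of P4ha2 held 2, a motif present in 32.7% of the 32851 windows of this length in the table. None of the 3 held CCAAT, found in 33.8% of all windows, or TATAAA, found in 12.4%. The Thbs2 window held 2 CCAAT matches and 1 TATAAA match and no GC box. No heat shock element, present in 6.69% of all windows, was matched in any of the 4, and a match or its absence describes these letters only.

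The arrays carry control probe sets for both ends of 2 abundant transcripts, and their 3′ minus 5′ difference describes the labelled RNA. For beta-actin it was 5.69 ± 0.25 in TS/WB, 0.16 ± 0.07 in TS and -0.51 ± 0.10 in NT (log2, mean ± SD, n = 6 each). The TS minus NT difference of 0.66 and the TS/WB minus TS difference of 5.53 both had adjusted p = 0.0026 (exact permutation test, two-sided, adjusted over 6 comparisons). For Gapdh the values were 3.70 ± 0.36 in TS/WB, -0.44 ± 0.12 in TS and -0.59 ± 0.11 in NT, and the TS minus NT difference of 0.15 had an exact permutation p, adjusted, of 0.0476. The TS/WB arrays stood apart from all others in this measure. In both comparisons with TS/WB the extract and this difference in labelled RNA therefore cannot be told apart. The part of the smaller TS minus NT differences in the matrix results was not tested. Array NT 5 stood apart through liver transcripts: 12 varying liver genes averaged 14.49 on it, against a median of 7.03 over the NT arrays. Without NT 5 the counts of members higher and lower were 5 and 11 in TS against NT, 8 and 25 in TS/WB against TS and 6 and 29 in TS/WB against NT.

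A gene is said to have risen or fallen where its adjusted p from limma, corrected over all 45037 probe sets, was under 0.05 and the difference was at least 0.01. In TS against NT, 5 of the 41 varying members rose, against 19.3% of all 6842 varying genes, and 11 fell, against 21.1% of all varying genes. The median member difference was -0.14, beside 0.00 for all varying genes. In TS/WB against TS, 9 members rose and 25 fell, beside 48.4% and 39.2% of all varying genes, with medians of -0.86 for the members and 0.16 for all. Under quantile normalization that split was 14 higher and 24 lower, with a gene's varying probe sets averaged it was 6 and 29, and with the probe set of largest range it was 7 and 31. Quantile normalization and median centring shift the constant probe sets, so most probe sets were called in both comparisons with TS/WB. Adjusted p under either scaling were therefore not comparable with the others in those comparisons. In TS/WB against NT, 6 rose and 30 fell, beside 46.9% and 41.3%, with medians of -0.95 and 0.07. As shares of the 41 varying members, rises were 12.2%, 22.0% and 14.6% and falls were 26.8%, 61.0% and 73.2% in the 3 comparisons in that order.

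**Figure D1:**
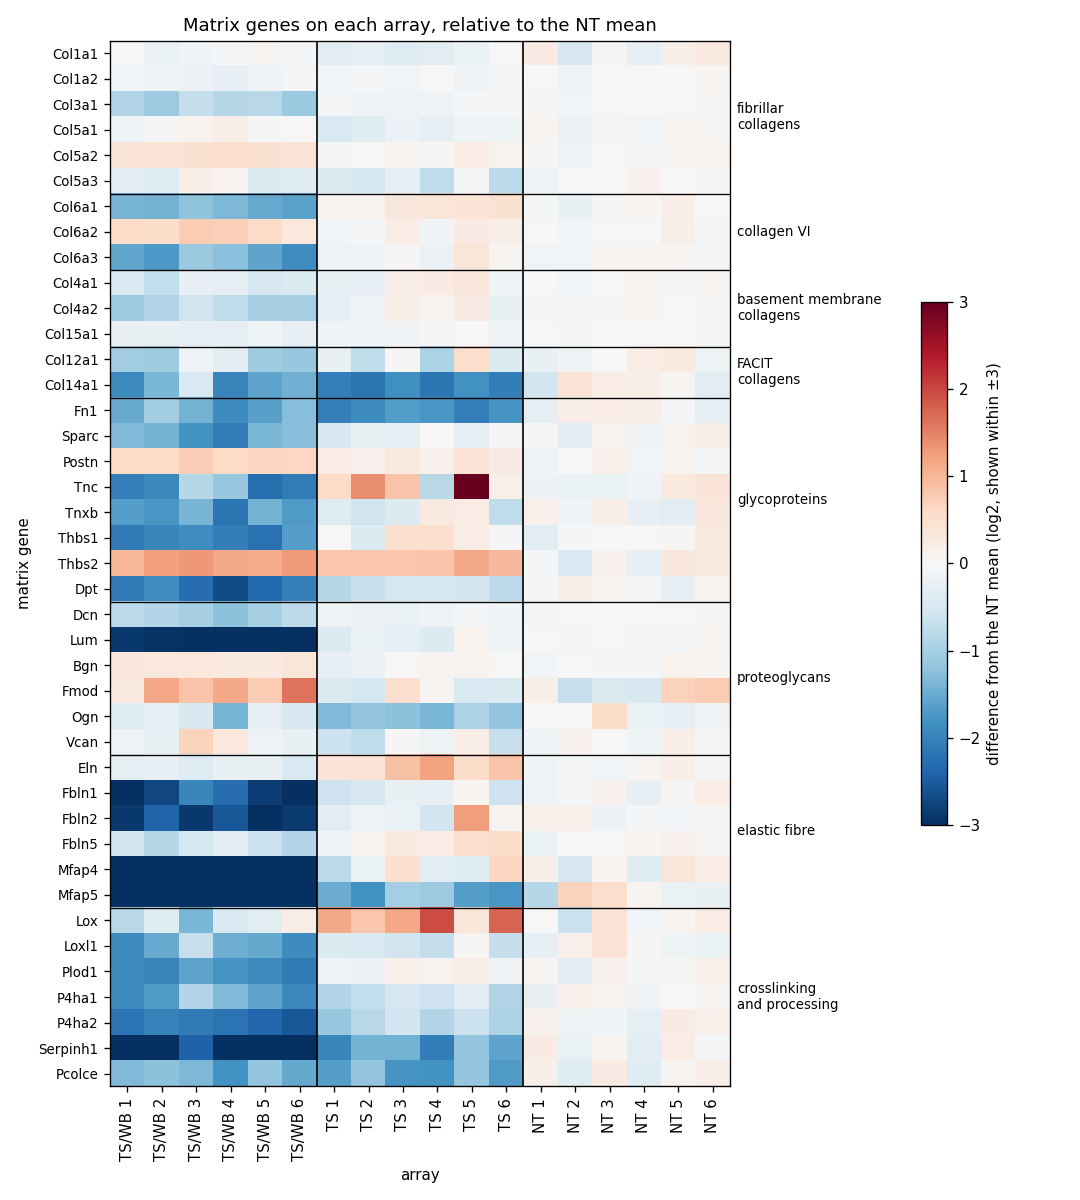
Level of each of the 41 varying members on each of the 18 arrays (columns TS/WB, TS and NT, 6 each), shown as the difference from the gene's mean over the NT arrays in log2, with colours cut at 3 in either direction. Most elastic fibre and processing genes are blue across the TS/WB columns, while the TS columns hold few strong colours: Col14a1, Fn1, Serpinh1, Pcolce and Mfap5 low, Lox, Thbs2 and Eln high.

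TS against NT addresses what repeated barrier disruption did to the matrix genes. Counts per class in this comparison stand beside rises in 19.3% and falls in 21.1% of all varying genes. The chains of the main dermal collagens did not pass the test, and 2 of the 6 fibrillar genes, the minor chains Col5a3 and Col5a1, fell. Col1a1, the alpha 1 chain of collagen I, had 11.74, 11.85 and 12.14 as lowest, median and highest level in TS arrays, against 11.65, 12.24 and 12.43 in NT arrays. The NT arrays spanned the TS arrays, and the difference of -0.25 (SE 0.12) had an adjusted p of 0.195. It passed only without NT 2, the lowest NT array, where it was -0.35 with an adjusted p of 0.0235. The other Col1a1 probe set, brighter in these groups with means of 13.03 in TS and 13.52 in NT, differed by -0.49 (adjusted p = 0.182). Col1a2, the partner chain, had 14.07, 14.10 and 14.18 in TS arrays, against 14.07, 14.17 and 14.25 in NT arrays. The groups overlapped, and the difference of -0.06 (SE 0.03, adjusted p = 0.301) turned to 0.05 under quantile normalization. Col3a1, the chain of the collagen III that accompanies collagen I in skin, had 14.15, 14.22 and 14.26 in TS arrays, against 14.22, 14.31 and 14.35 in NT arrays. Its difference of -0.09 (SE 0.06, adjusted p = 0.415) became 0.0074 under quantile normalization and passed with an adjusted p of 0.0452 in a fit of these 12 arrays alone.

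Col5a3, a chain of collagen V, which controls the start and width of fibrils, had 8.12, 8.43 and 8.83 in TS arrays, against 8.75, 8.90 and 9.03 in NT arrays. TS 5, the highest TS array, reached into the NT range, and the gene fell by 0.47 (SE 0.13, adjusted p = 0.0227). The call was lost without NT 4, TS 4 or TS 6, with adjusted p of 0.0517, 0.0513 and 0.0544. Col5a1 fell by 0.25 (SE 0.07, adjusted p = 0.0209), a call lost without TS 2 (0.0514), while Col5a2 differed by 0.07 (adjusted p = 0.465). The other Col5a1 probe sets, at -0.15 and -0.12, did not pass (adjusted p = 0.246 and 0.218). In the 6 fibrillar genes the differences ran from -0.47 to 0.07 with a median of -0.17.

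Collagen VI forms beaded microfibrils around cells, and of its 3 chains Col6a1 rose. Col6a1 had 11.61, 11.88 and 12.01 in TS arrays, against 11.32, 11.56 and 11.74 in NT arrays. TS 1 and TS 2 lay inside the NT range, below NT 5, and the gain was 0.29 (SE 0.09), a fold of 1.22 with an adjusted p of 0.0297. The call was lost without any 1 of NT 1, NT 2, NT 6, TS 3, TS 4, TS 5 or TS 6, with adjusted p between 0.0501 and 0.0723. Col6a2 differed by 0.06 and Col6a3 by 0.01, neither passing. Of the basement membrane genes, the collagen IV chains Col4a1 and Col4a2 differed by 0.04 and -0.02, and Col15a1, of the zone beneath the basement membrane, by -0.09 with an adjusted p of 0.0511. All 3 missed the threshold, though Col15a1 passed under 11 of the alternatives, with adjusted p between 0.0117 and 0.0496.

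The largest fall of any member was in a FACIT collagen. Col14a1, which coats collagen I fibrils, had 8.32, 8.46 and 8.71 in TS arrays, against 9.96, 10.67 and 10.91 in NT arrays. Every TS array lay below every NT array, by more than 1 log2 unit, and the gene fell by 2.03 on the log2 scale (SE 0.23, 4.08-fold lower, adjusted p = 2.62e-05). Its second varying probe set fell as well, by 0.81 (adjusted p = 0.000113). Col12a1, a FACIT collagen of dense connective tissue, differed by -0.30 (SE 0.24, adjusted p = 0.545).

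The 8 glycoproteins split, with 2 rises, 2 falls and 4 that did not pass. Fn1, fibronectin, which links matrix to cell surface integrins, had 10.20, 10.42 and 10.56 in TS arrays, against 11.96, 12.29 and 12.47 in NT arrays. The groups were separate by more than 1 log2 unit, and Fn1 fell by 1.86 (SE 0.14, 3.63-fold lower, adjusted p = 7.18e-07). Its other probe set fell by 0.69 (adjusted p = 3.19e-06). Dpt, dermatopontin, a decorin-binding protein that promotes fibril assembly, fell by 0.65 (SE 0.12, adjusted p = 0.000974), with no overlap between the groups.

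Thbs2, thrombospondin 2, an anti-angiogenic matricellular protein needed for normal fibril shape in mouse skin, rose. It had 10.70, 10.72 and 11.02 in TS arrays, against 9.42, 9.92 and 10.21 in NT arrays. All TS arrays lay above all NT arrays, and the gain was 0.91 (SE 0.12, 1.88-fold, adjusted p = 7.7e-05). Its 2 other probe sets differed by 0.53 (adjusted p = 0.0101) and 0.40 (adjusted p = 0.0896). Postn, periostin, which binds collagen and helps lysyl oxidase activation, rose by 0.24 (SE 0.05, adjusted p = 0.00472).

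Tnc, tenascin C, a glycoprotein of wounds and remodelling tissue, had 8.31, 9.86 and 12.85 in TS arrays, against 8.93, 8.99 and 9.53 in NT arrays. The TS arrays lay on both sides of the NT range, TS 5 being the highest and TS 4 the lowest, so the difference of 0.98 (SE 0.55) had an adjusted p of 0.309. The SD was 1.53 in TS arrays and 0.27 in NT arrays. Sparc, a collagen-binding protein, Tnxb, tenascin X, and Thbs1, thrombospondin 1, which can activate latent TGF-beta, differed by -0.21, -0.27 and 0.12, with adjusted p of 0.426, 0.472 and 0.791.

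**Figure D2:**
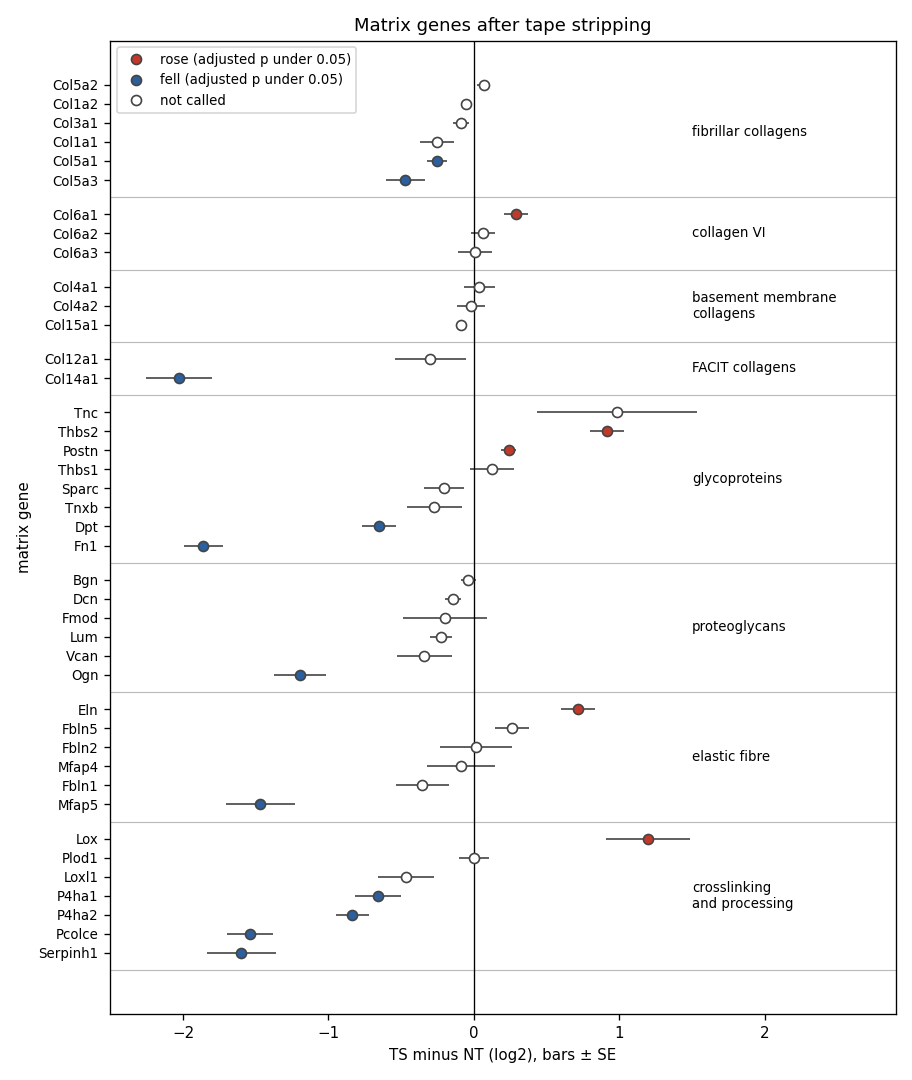
TS minus NT difference in log2 (horizontal axis) of the 41 varying members by class, with bars of ± SE from the limma fit, red for rises, blue for falls and open circles for genes that did not pass. The 4 processing genes Serpinh1, Pcolce, P4ha2 and P4ha1 lie left of 0 and Lox lies at 1.20, while the collagen I, III, IV and most collagen VI chains lie close to 0.

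All 6 proteoglycans lay below 0, between -1.20 and -0.04, and 1 passed. Ogn, osteoglycin (mimecan), a small leucine-rich proteoglycan, had 10.39, 10.56 and 10.85 in TS arrays, against 11.51, 11.72 and 12.33 in NT arrays. The groups did not overlap, and Ogn fell by 1.20 (SE 0.18, 2.29-fold lower, adjusted p = 0.000264), while its other probe set fell by 1.59. Dcn, decorin, which binds collagen I and limits fibril fusion, had 13.75, 13.79 and 13.87 in TS arrays, against 13.90, 13.95 and 13.98 in NT arrays. Its groups also did not overlap, yet the difference of -0.14 (SE 0.06) missed the threshold with an adjusted p of 0.118 in the fit of all 18 arrays. In the fit of the 12 TS and NT arrays alone the adjusted p was 0.0019; the SD was 0.17 in TS/WB, 0.04 in TS and 0.03 in NT.

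Lum, lumican, another regulator of fibril width, differed by -0.23 (SE 0.08, adjusted p = 0.0634) and passed without TS 5, at -0.29 with an adjusted p of 0.00366. Bgn, biglycan, Fmod, fibromodulin, and Vcan, the large hyaluronan-binding versican, differed by -0.04, -0.20 and -0.34, and none passed. For Bgn the sign turned under quantile normalization, to 0.02.

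Elastic fibre genes did not move as a group, with 1 rise, 1 fall and 4 of the 6 varying members not passing. Eln, elastin itself, had 9.41, 9.72 and 10.21 in TS arrays, against 8.91, 8.96 and 9.21 in NT arrays. Every TS array exceeded every NT array, and Eln rose by 0.72 (SE 0.12, 1.64-fold, adjusted p = 0.000526). Mfap5, a microfibril-associated glycoprotein, had 9.05, 9.30 and 9.86 in TS arrays, against 10.01, 10.81 and 11.56 in NT arrays. Its groups did not overlap, and it fell by 1.47 (SE 0.23, 2.77-fold lower, adjusted p = 0.00047), with its second probe set lower by 1.08 (adjusted p = 0.000772). Fbln5, which carries elastin onto microfibrils, differed by 0.26 (adjusted p = 0.173), Fbln1 by -0.35 (0.262), Fbln2 by 0.01 and Mfap4 by -0.09. The other varying Fbln1 probe set fell by 0.40 (adjusted p = 0.0401). Fbln2, a fibulin of basement membranes and elastic fibres, had a TS range of 10.31 to 12.14, in which TS 5 stood alone at the top.

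Genes of collagen folding and trimming fell while the gene of the main crosslinking enzyme rose. Of the 7 varying members, 4 fell, 1 rose and 2 did not pass. Serpinh1, the collagen chaperone HSP47 of the endoplasmic reticulum, had 9.63, 10.19 and 10.54 in TS arrays, against 11.36, 11.72 and 11.95 in NT arrays. The groups did not overlap, and the gene fell by 1.60 (SE 0.24, 3.03-fold lower, adjusted p = 0.000264). Pcolce, which speeds the removal of the procollagen C-terminal propeptide, fell by 1.54 (SE 0.16, 2.91-fold lower, adjusted p = 1.29e-05), with TS arrays at 10.71 to 11.35, against NT arrays at 12.14 to 12.75. P4ha2 and P4ha1, catalytic subunits of the prolyl hydroxylase that stabilises the triple helix, fell by 0.84 and 0.66 (SE 0.12 and 0.16, adjusted p = 0.000147 and 0.0095).

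Lox, lysyl oxidase, which starts the crosslinking of collagen and elastin, had 10.68, 11.45 and 12.27 in TS arrays, against 9.68, 10.35 and 10.75 in NT arrays. The ranges touched only through TS 5, the lowest TS array, and NT 3, the highest NT array. Lox rose by 1.20 (SE 0.29, 2.29-fold, adjusted p = 0.0092), and its other varying probe set rose by 1.42 (adjusted p = 0.00121). Loxl1, a lysyl oxidase-like enzyme of elastic fibres, lay on the other side at -0.46 (SE 0.19), with an adjusted p of 0.133. Plod1, which hydroxylates collagen lysines, showed a difference of 0.00 (SE 0.10).

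**Figure D3:**
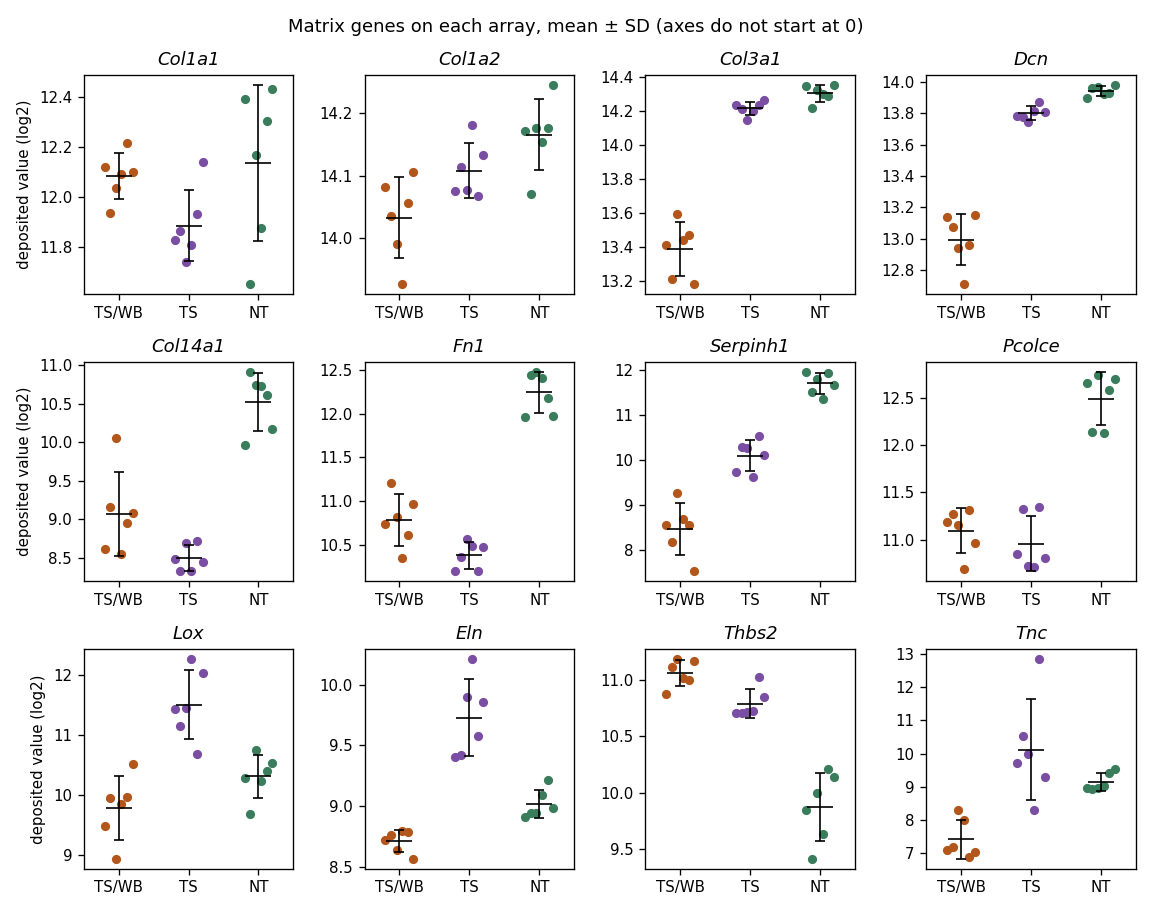
Level (log2, vertical axes, not starting at 0) of single matrix genes on each array, with TS/WB, TS and NT from left to right, points for the 6 arrays and bars for the mean ± SD. Fn1 and Col14a1 are separate between TS and NT, Eln and Lox are highest in TS, and Tnc spreads from 8.31 to 12.85 in TS.

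TS/WB against TS compares stripped skin with and without the extract. Every difference in this comparison stands beside the beta-actin and Gapdh end differences of 5.53 and 4.14. For beta-actin the TS/WB arrays lay at 5.27 to 5.96 and the TS arrays at 0.08 to 0.26, so the extract and the labelled RNA cannot be told apart. Nor do the labels state whether TS mice received the vehicle. Counts per class in this comparison stand beside rises in 48.4% and falls in 39.2% of all varying genes. Collagen VI, elastic fibre and processing genes were mostly lower in TS/WB, and the fibrillar collagens were mixed. Col1a1 had 11.94, 12.10 and 12.22 in TS/WB arrays and Col1a2 had 13.93, 14.05 and 14.11. Both overlapped the TS arrays, with differences of 0.20 (SE 0.12, adjusted p = 0.198) and -0.08 (SE 0.03, adjusted p = 0.0699). Under quantile normalization, where adjusted p were not comparable, both passed as higher, at 0.48 and 0.42, so Col1a2 turned sign. On the deposited values the other Col1a2 probe set fell by 0.28 (adjusted p = 0.0388), and the average of both fell by 0.18 (adjusted p = 0.0366). The Col1a2 probe set used here passed as lower without NT 2 (adjusted p = 0.0471) and without TS/WB 6 (0.0352). Col1a1 also passed as higher in a fit of these 12 arrays alone (adjusted p = 0.0371), while its other probe set fell by 3.71. Col3a1 had 13.18, 13.43 and 13.60 in TS/WB arrays, all below the TS arrays, and fell by 0.83 (SE 0.06, 1.78-fold lower, adjusted p = 3.87e-09).

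The collagen V chains Col5a2 and Col5a1 rose by 0.37 and 0.27 (SE 0.05 and 0.07, adjusted p = 5.35e-06 and 0.00481), and neither overlapped the TS arrays. Col5a3 did not pass at 0.28 (adjusted p = 0.101). It passed as higher among varying probe sets only (adjusted p = 0.047) and without TS 5 (0.0279). Under quantile normalization (0.00737) and median centring (0.0275) Col5a3 was also under the threshold, but these adjusted p were not comparable. Col5a2 rose in both of its probe sets. For Col5a1 another probe set fell by 0.58 (adjusted p = 2.52e-07), the other lay at -0.05 (adjusted p = 0.752), and their average lay at -0.12 (adjusted p = 0.0837), so its rise held for 1 of 3 probe sets. The collagen VI chains parted, though each was read by only 1 varying probe set. Col6a1 had 9.93, 10.14 and 10.33 in TS/WB arrays and fell by 1.70 (SE 0.09, 3.25-fold lower, adjusted p = 7.75e-11), with no overlap. Col6a3 fell by 1.53 (SE 0.12, adjusted p = 1.57e-08). Col6a2 had 12.02, 12.27 and 12.46 in TS/WB arrays, all above the TS arrays, and rose by 0.52 (SE 0.08, 1.43-fold, adjusted p = 5.34e-05).

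All 3 basement membrane collagens fell, beside falls in 39.2% of all varying genes. Col4a2 had 9.21, 9.35 and 9.71 in TS/WB arrays, all below the TS arrays, and fell by 0.86 (SE 0.10, 1.82-fold lower, adjusted p = 1.42e-06). Col4a1 fell by 0.48 and Col15a1 by 0.14 (adjusted p = 0.00139 and 0.000679); for Col15a1 the difference was -0.0088 under quantile normalization and no longer passed. Col14a1 had 8.54, 9.01 and 10.06 in TS/WB arrays, overlapping the TS arrays, and its gain of 0.57 (SE 0.23, adjusted p = 0.0494) was 0.37 without TS/WB 3, with an adjusted p of 0.0933. The call was also lost without 13 other arrays taken 1 at a time. Col12a1 differed by -0.50 (adjusted p = 0.116). It passed as lower under array weights (adjusted p = 0.0226), without TS 4 (0.0427) and without TS/WB 3 (0.043). Its other varying probe set lay at -0.09 and did not pass (adjusted p = 0.464).

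Among the glycoproteins 5 fell and 2 rose. Tnc had 6.87, 7.14 and 8.29 in TS/WB arrays. Even TS/WB 3, the highest, lay just below the lowest TS array at 8.31, and Tnc fell by 2.71 (SE 0.55, 6.52-fold lower, adjusted p = 0.000641). Thbs1, Dpt, Tnxb and Sparc fell by 2.11, 1.57, 1.41 and 1.34 (adjusted p of 1.12e-05 or less), all without overlap. The TS/WB mean of Thbs1, 6.72, lay under the array medians. Fn1 had 10.34, 10.78 and 11.21 in TS/WB arrays, overlapping TS, and rose by 0.40 (SE 0.14, adjusted p = 0.0233), a call lost without TS 1, TS 5, TS/WB 2 or TS/WB 6 (adjusted p between 0.052 and 0.0557). Its other probe set fell by 0.28 (adjusted p = 0.00105), and the average of both lay at 0.06 (adjusted p = 0.652), so Fn1 had no single direction. Postn rose by 0.38 (SE 0.05, adjusted p = 1.16e-05), and Thbs2 missed the threshold at 0.27 (adjusted p = 0.0727). Thbs2 passed as higher among varying probe sets only (adjusted p = 0.032), in the fit of 12 arrays (0.00925), without NT 2 (0.0264) and without TS 5 (0.043). Under quantile normalization (0.41, adjusted p = 0.00258) and median centring (0.0161) it was also under the threshold, but these adjusted p were not comparable. Its other probe sets lay on both sides, at -1.44 and 0.62, both past the threshold.

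Proteoglycans went both ways, with 3 rises and 2 falls, of which the rises of Ogn and Fmod were opposed by another of their probe sets. Lum had 9.93, 10.16 and 10.25 in TS/WB arrays, more than 2 log2 units below every TS array, and fell by 2.79 (SE 0.08, 6.93-fold lower, adjusted p = 4.14e-14). Dcn had 12.71, 13.02 and 13.15 in TS/WB arrays, all below TS, and fell by 0.80 (SE 0.06, 1.75-fold lower, adjusted p = 6.62e-09). Fmod had 8.29, 8.99 and 9.61 in TS/WB arrays, against 7.47, 7.58 and 8.50 in TS arrays. It rose by 1.17 (SE 0.29, 2.25-fold, adjusted p = 0.00312) with some overlap. Another Fmod probe set fell by 0.20 (adjusted p = 0.0132), 1 rose by 0.32 (adjusted p = 0.0437) and 1 lay at 0.03 (adjusted p = 0.363). Ogn and Bgn rose by 0.65 and 0.36 (adjusted p = 0.00624 and 3.38e-05). The other Ogn probe set fell by 2.85 (adjusted p = 9.91e-09), and the average of both fell by 1.10 (adjusted p = 0.000155). Vcan did not pass at 0.38 (adjusted p = 0.124). Without TS 5 it passed as higher (adjusted p = 0.0428). Under quantile normalization (0.48, adjusted p = 0.0203) and median centring (0.41, adjusted p = 0.0404) it was also under the threshold, but these adjusted p were not comparable. Its other probe set fell by 0.73 (adjusted p = 2.4e-05), and the average of both lay at -0.18 (adjusted p = 0.357).

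All 6 varying elastic fibre genes fell, with differences from -3.35 to -0.89, beside falls in 39.2% of all varying genes. Mfap4, a microfibril-associated protein that binds elastin, had 7.35, 7.70 and 7.98 in TS/WB arrays, against 10.30, 10.84 and 11.74 in TS arrays. The groups were more than 2 log2 units apart, and Mfap4 fell by 3.35 (SE 0.23, 10.2-fold lower, adjusted p = 3.98e-09). Eln had 8.57, 8.74 and 8.79 in TS/WB arrays, all below TS, and fell by 1.02 (SE 0.12, 2.02-fold lower, adjusted p = 1.68e-06). Fbln2, Mfap5, Fbln1 and Fbln5 fell by 2.85, 2.77, 2.32 and 0.89. Mfap5 and Fbln1 averaged 6.63 and 6.89 in TS/WB, under the array medians of 6.897 to 6.910, so no fold is given for them.

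Of the 7 varying processing genes 6 fell and none rose, beside 48.4% of all varying genes that rose. Plod1 had 6.46, 6.67 and 7.0 in TS/WB arrays, against 8.40, 8.58 and 8.78 in TS arrays. Its groups were separate, and it fell by 1.88 (SE 0.10, adjusted p = 2.42e-10). The TS/WB mean of Plod1, 6.70, lay under the array medians, so no fold is given. Lox had 8.93, 9.89 and 10.52 in TS/WB arrays, all below TS, and fell by 1.73 (SE 0.29, 3.31-fold lower, adjusted p = 9.82e-05). Serpinh1, P4ha2, Loxl1 and P4ha1 fell by 1.63, 1.41, 1.03 and 0.89 (adjusted p of 0.000287 or less). Pcolce differed by 0.14 (adjusted p = 0.568), while its other probe set fell by 2.997 (adjusted p = 2.59e-10).

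In TS/WB against NT, which shares its arrays with both other comparisons, 6 of 6 elastic fibre genes, 6 of 7 processing genes, 3 of 3 basement membrane collagens and both FACIT collagens fell, beside falls in 41.3% of all varying genes. The beta-actin and Gapdh end differences were 6.19 and 4.28 here, so the treatment and the labelled RNA cannot be told apart. Mfap5 fell by 4.24 (SE 0.23, adjusted p = 2.31e-10). Mfap4 fell by 3.44 (10.9-fold lower) and Serpinh1 fell by 3.23 (9.38-fold lower, adjusted p = 7.91e-09). Lum fell by 3.02 (8.10-fold lower) and Dpt by 2.22 (4.67-fold lower). Thbs2 rose by 1.18 (SE 0.12, 2.27-fold, adjusted p = 2.67e-07), Fmod by 0.97 and Postn by 0.62. Of the other Thbs2 probe sets 1 rose by 1.02 and 1 fell by 0.91 (adjusted p = 2.69e-05 and 2.02e-05). Of the other Fmod probe sets 1 fell by 0.30 (adjusted p = 0.000657), and the average over its probe sets, 0.21, did not pass (adjusted p = 0.157). Col6a2, Col5a2 and Bgn rose by 0.58, 0.43 and 0.32. The other Col5a2 probe set lay at 0.16 and did not pass (adjusted p = 0.159). Col12a1 fell by 0.80, while its other varying probe set lay at -0.0029 and did not pass. Fn1 fell by 1.46, Col14a1 by 1.46, Pcolce by 1.40 and Ogn by 0.55, while the other Pcolce probe set fell by 4.42 and the other Ogn probe set fell by 4.44. The smaller Ogn value no longer passed under quantile normalization (-0.31, adjusted p = 0.117) or in a fit of these 12 arrays alone (adjusted p = 0.0526). Lox differed by -0.53 (SE 0.29, adjusted p = 0.152). Eln fell by 0.30 (adjusted p = 0.0419), a call lost without any 1 of NT 2 to NT 6 or of the 6 TS/WB arrays, with adjusted p between 0.0504 and 0.0936. Col1a1 lay at -0.05 and Col5a1 at 0.01, neither passing on these probe sets. The other Col1a1 probe set fell by 4.20 (adjusted p = 1.54e-10), the average of both fell by 2.13 (adjusted p = 1.05e-08), and under quantile normalization the one used here passed as higher at 0.31 (adjusted p = 0.0178). That last adjusted p was not comparable with the others. The other Col5a1 probe sets fell by 0.20 and 0.70 (adjusted p = 0.0438 and 2.49e-08). Col1a2 fell by 0.13 (adjusted p = 0.00252) but rose by 0.46 under quantile normalization. Its other probe set fell by 0.42 on the deposited values (adjusted p = 0.00296).

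A gene with several probe sets is read at several places along its transcript, and for 19 members at least 2 probe sets varied. Agreement between probe sets was counted for the members only, with no share over all genes beside it. The counts below are therefore not shown to be particular to the matrix genes. In TS against NT, all varying probe sets passed in the same direction for 7 of the 19 (Col14a1, Fn1, Ogn, Mfap5, Lox, Serpinh1 and Pcolce) and in opposite directions for 0, and the median spread within a gene was 0.24. For TS/WB against TS, 8 of the 19 passed in 1 direction and 5 (Col5a1, Fn1, Thbs2, Fmod and Ogn) in opposite directions, with a median spread of 0.85. The spread exceeded 1 log2 unit for 9 genes in TS/WB against TS and for 2 in TS against NT. For TS/WB against NT, 11 of the 19 passed in 1 direction, 2 (Thbs2 and Fmod) in opposite directions and 1 (Lox) in none. For 5 (Col1a1, Col5a1, Col5a2, Col12a1 and Vcan) some probe sets passed and some did not. The median spread was 0.86, with 8 genes over 1 log2 unit. For Col1a1 the other probe set fell by 3.71 in TS/WB against TS (SE 0.23, adjusted p = 8.32e-10), where the probe set used above lay at 0.20. For Ogn the other probe set lay at -2.85 and the one used above at 0.65, and for Pcolce they lay at -2.997 and 0.14. The 2 other probe sets of Thbs2 lay at -1.44 and 0.62, beside 0.27 for the one used above. The positions of these probe sets along the transcripts were not analysed here. The genes whose varying probe sets all fell in TS/WB against TS were Col3a1, Col4a1, Sparc, Fbln1, Mfap5, Lox and Serpinh1, and Col5a2 rose in both of its probe sets. Members with only 1 varying probe set, such as the collagen VI chains, Lum, Dcn, Fbln2 and Mfap4, had no other to set beside their values.

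**Figure D4:**
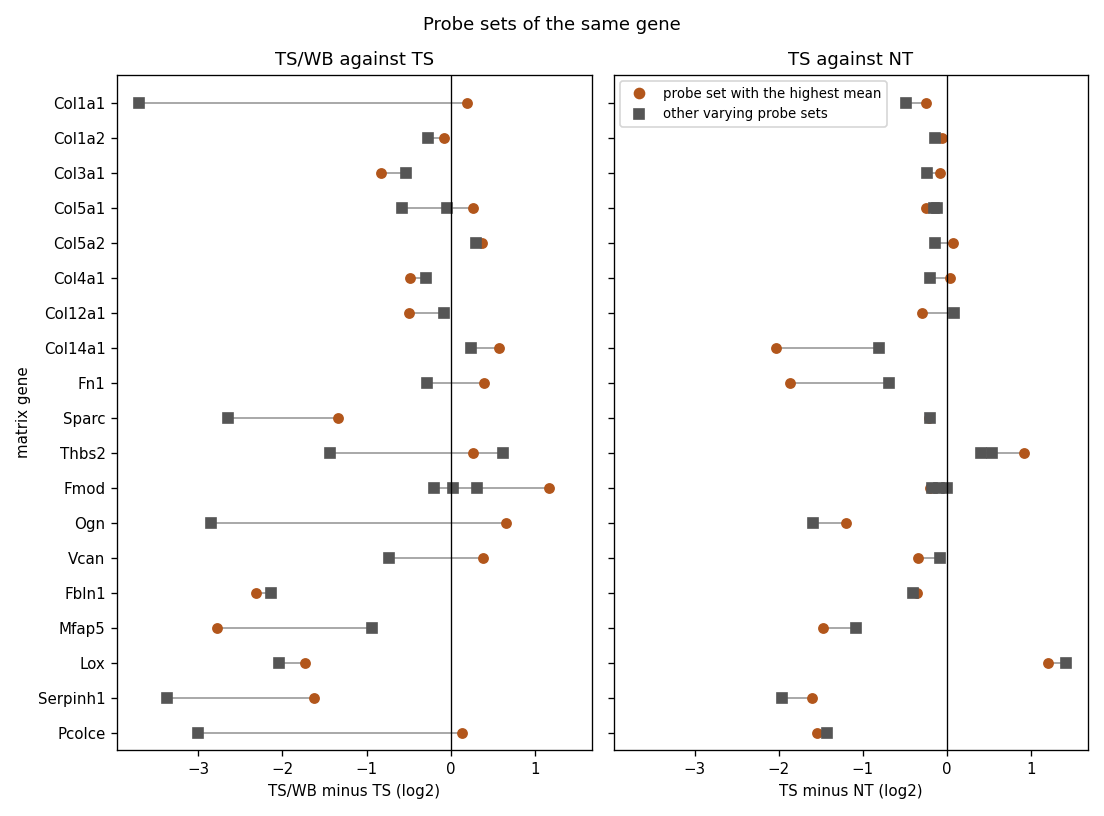
Differences in log2 of each varying probe set of the 19 members with at least 2 of them, for TS/WB minus TS (left) and TS minus NT (right), the orange circle being the probe set with the highest mean and the squares the others. In TS minus NT the marks of a gene lie within 1 log2 unit, except for Col14a1 and Fn1. In TS/WB minus TS they lie more than 1 log2 unit apart for 9 genes, among them Col1a1, Ogn, Pcolce and Thbs2.

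Other genes of the matrix pathways, taken from lists that share no gene with the members except for Mfap5 and Fbn1 among the fibroblast markers, were counted in the same fit. Of all varying genes 19.3% rose and 21.1% fell in TS against NT. Of 31 varying genes for other matrix proteins, 4 rose and 16 fell in TS against NT, with a median of -0.18. Fndc1 fell by 1.65, Efemp1, a fibulin-related protein, fell by 1.51, and Fbln7 and the hyaluronan synthase Has3 rose by 0.87 and 0.73. Of 19 varying genes for other collagens and collagen enzymes, 3 rose and 6 fell. Col7a1, which forms the fibrils anchoring the epidermis to the dermis, rose by 1.24 (SE 0.14, adjusted p = 2.24e-05) and the transmembrane collagen Col13a1 by 0.86, while Pcolce2 and Col8a1 fell by 1.38 and 1.23.

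Of 22 varying matrix proteases and inhibitors, 3 rose and 6 fell in TS against NT, beside rises in 19.3% and falls in 21.1% of all varying genes. Mmp11, stromelysin 3, rose by 1.90 (SE 0.14, adjusted p = 8.17e-07) and the gelatinase Mmp2 by 0.45, while the macrophage elastase Mmp12 fell by 1.57 and Fap by 1.03. Of 16 varying TGF-beta genes 3 rose and 2 fell, with Fst and Acvr1 higher by 0.54 and 0.22 and Bmp4 and Ltbp3 lower by 1.23 and 0.71. Of 11 varying matrix receptors 0 rose and 2 fell, the collagen receptor Ddr2 by 0.33 and the syndecan Sdc2 by 0.32. For TS/WB against TS these lists had 11 rises and 16 falls (other matrix proteins), 6 and 11 (other collagens and enzymes), 8 and 11 (proteases), 6 and 6 (TGF-beta) and 7 and 3 (receptors). Of all varying genes 48.4% rose and 39.2% fell in that comparison. There Mgp, an inhibitor of calcification, fell by 3.77, the microfibril protein Mfap2 fell by 3.64, Mmp12 fell by 3.69 and the inhibitor Timp1 fell by 2.82, while the TGF-beta target Ccn2 rose by 2.91 and the protease Adamts1 by 1.69. Itgb1, the integrin subunit shared by collagen receptors, fell by 1.81, and P4hb, the shared subunit of prolyl 4-hydroxylase, by 1.90.

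Markers of the skin's cell types moved with the groups. Their counts in TS against NT stand beside rises in 19.3% and falls in 21.1% of all varying genes. Of 20 varying fibroblast markers, 1 rose and 13 fell in TS against NT, with differences of -2.47 for Pi16, -1.72 for Clec3b and 1.07 for Crabp1, which rose. The mean level of the list lay at 9.07 to 9.35 in TS/WB arrays, 9.80 to 10.20 in TS arrays and 10.41 to 10.78 in NT arrays. The skeletal muscle list of 15 varying genes, with 0 rises and 13 falls in TS against NT, lay at 7.12 to 8.51 in TS/WB, 10.42 to 10.90 in TS and 12.27 to 13.77 in NT. The adipocyte list, with 0 rises and 8 falls among 12 in TS against NT, lay at 7.99 to 8.37 in TS/WB, 9.45 to 9.79 in TS and 10.23 to 10.88 in NT. The keratinocyte list, with 10 rises and 1 fall among 14, lay at 10.78 to 11.35 in TS/WB, 11.61 to 11.997 in TS and 11.08 to 11.46 in NT. The macrophage, endothelial and smooth muscle lists had 1, 3 and 0 rises and 9, 0 and 2 falls in TS against NT, among 13, 7 and 9 varying genes. In TS/WB against TS the fibroblast, keratinocyte, muscle and adipocyte lists had 6, 4, 0 and 2 rises and 10, 7, 11 and 9 falls. The macrophage, endothelial and smooth muscle lists had 2, 1 and 1 rises and 10, 6 and 6 falls there. These counts stand beside rises in 48.4% and falls in 39.2% of all varying genes. For the TS/WB levels, cell numbers, the extract and the labelled RNA cannot be told apart. The part of the cell types in the falls of Col14a1, Fn1, Ogn, Mfap5, Dpt and the processing genes was not tested.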

How the data were processed

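RNA of 18 skin samples was isolated (Isogen, then RNeasy), and 100 ng was labelled for Affymetrix mouse genome arrays, per the labels. The authors' table gives each probe set on each array a value between 2.93 and 19.04, which was read as log2. How the authors summarised and normalized these log2 values, and their base, were not given in the sources used here, and folds rest on that base. Of 45101 probe sets, 64 controls were left out and 45037 tested, 73.5% of which ranged by under 0.01 over the arrays.

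Differences came from limma 3.58.1 under R 4.3.3, with a mean per group over all 18 arrays, moderated two-sided tests, no covariate and Benjamini-Hochberg adjustment over 45037 probe sets per comparison. Rises and falls passed 0.05 with a difference of at least 0.01. A fold is given where the lower group mean lay above the array medians. With 6 arrays a group, their number limits the precision. Tested on simulated data (TS against NT, 45037 probe sets), it found 65 of 100 probe sets changed by 0.5 log2 and 91 of 100 changed by 1, with 1 false call. The simulated noise was normal, with equal spread in every group and no difference in labelled RNA. As 73.5% of the probe sets were near constant, most could give no false call. That count therefore does not describe the error in the comparisons above.

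Members, gene lists and tests were chosen with earlier results of these data known. Lowest, median and highest levels are given for the called members with the largest rise and fall per class and for Col1a1, Col1a2, Col3a1, Dcn, Eln, Lox, Fn1 and Tnc, and for TS/WB against NT only as differences. Of other pathway lists, genes among the 2 largest rises and 2 largest falls are named. Alternatives were quantile normalization, median centring, no dim probe sets, varying probe sets only, array weights, 12 arrays per fit, a replicate block, a trended robust prior, other probe sets per gene and leaving out each array. Same-numbered TS and NT arrays did not deviate together (r from -0.13 to 0.13), so the numbers were not taken to pair the mice. No 2 arrays held identical values.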

Additional observations from a re-analysis of the deposited data

Results flagged for a closer look

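In 6 of 123 groups of 6 values (41 genes in 3 groups) the highest or lowest array stood apart by Dixon's 95% critical value, and chance flags about 1 in 20. Fbln2 reached 12.14 on TS 5, while the other TS arrays lay at 10.31 to 10.97; without TS 5 its TS minus NT difference was -0.23 instead of 0.01, and neither passed. Loxl1 reached 9.96 on TS/WB 3, while the other TS/WB arrays lay at 8.75 to 9.19. Ogn stood at 10.38 on TS/WB 4, below the 11.29 to 11.51 of the other TS/WB arrays, and at 12.33 on NT 3, above the 11.51 to 11.76 of the other NT arrays. Col15a1 was 7.98 on TS/WB 5, while the other TS/WB arrays lay at 7.82 to 7.87. Col6a2 was 11.87 on NT 5, the array with the liver transcripts, while the other NT arrays lay at 11.61 to 11.70.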

How the results depend on the processing

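The counts of members higher and lower in TS against NT were 4 to 5 and 10 to 15 over the alternatives, and Col14a1, Fn1, Serpinh1, Pcolce, Mfap5 and Ogn fell under each of them. With the replicate block, 5 rose and 12 fell in TS against NT, 9 and 25 in TS/WB against TS and 6 and 30 in TS/WB against NT, against 5 and 11, 9 and 25, and 6 and 30 without it. In TS/WB against TS, 14 members rose under quantile normalization, against 9 on the deposited values. Probe sets called numbered 39795 under quantile normalization and 43993 under median centring in TS/WB against TS, and 41328 and 43993 in TS/WB against NT, because both scalings shift the constant probe sets by construction. They numbered 10612 and 10667 on the deposited values. Adjusted p under either scaling were therefore not comparable with those on the deposited values. Under quantile normalization the median of all varying genes was 0.28 in TS/WB against TS and 0.19 in TS/WB against NT, where the deposited values gave 0.16 and 0.07.

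Gapdh's end difference in TS against NT was 0.118 (adjusted exact permutation p = 0.0866) under quantile normalization and 0.109 to 0.180 without single arrays; the causes of these changes were not tested. Leaving out single arrays gave 4 to 5 rises and 10 to 13 falls in TS against NT, 7 to 10 and 25 to 26 in TS/WB against TS, and 6 and 29 to 30 in TS/WB against NT.

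Signs turned as follows. In TS against NT quantile normalization gave 0.0174 for Bgn, 0.0453 for Col1a2, 0.0074 for Col3a1 and 0.001 for Col4a2. Averaging the probe sets of a gene gave -0.0838 for Col4a1 and -0.0378 for Col5a2, and array weights gave -0.03 for Fbln2, 0.12 for Mfap4 and -0.0082 for Plod1. In TS/WB against TS averaging gave -1.75 for Col1a1, -0.12 for Col5a1, -1.10 for Ogn, -1.43 for Pcolce, -0.18 for Thbs2 and -0.18 for Vcan. The probe set with the largest range gave -3.71 for Col1a1, -0.58 for Col5a1, -2.85 for Ogn, -2.997 for Pcolce and -1.44 for Thbs2, and quantile normalization gave 0.42 for Col1a2. In TS/WB against NT quantile normalization gave 0.31 for Col1a1 and 0.46 for Col1a2, and array weights gave -0.014 for Col5a1 and -0.024 for Vcan. There averaging gave -0.29 for Col5a1 and -0.39 for Vcan, and the probe set with the largest range -0.70 for Col5a1 and -0.91 for Thbs2. Without single arrays, TS minus NT ran from -0.068 to 0.0036 for Bgn, -0.0262 to 0.0937 for Col4a1, -0.0769 to 0.0306 for Col4a2, -0.0638 to 0.0455 for Col6a3, -0.23 to 0.13 for Fbln2, -0.237 to 0.0513 for Mfap4 and -0.0675 to 0.0369 for Plod1. TS/WB minus NT ran from -0.15 to 0.0052 for Col1a1, -0.0251 to 0.039 for Col5a1 and -0.0875 to 0.0899 for Vcan. These causes were not tested.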

Other observations

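Single arrays held the highest matrix levels of their group more often than the highest levels of genes at large. TS 5 had the highest TS value for 25 of the 41 varying members, among them Tnc, Fbln2 and the collagen IV chains Col4a1 and Col4a2, while it was the highest TS array for 19% of all 6842 varying genes. Lox was an exception, since TS 5 was its lowest TS array. TS/WB 3 was the highest TS/WB array for 19 members and for 23.0% of all varying genes. NT 6 was the highest NT array for 15 members and 18.6% of all varying genes, and the lowest for 0 members. Without TS 5, 4 members rose and 13 fell in TS against NT.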
